A study of Mus musculus with 16 samples.

Results

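The genes described here are 10 genes that mark retinal ganglion cells: Pou4f1, Pou4f2, Pou4f3, Rbpms, Sncg, Nefl, Nefm, Nefh, Slc17a6 and Thy1. They were taken by gene symbol from a table of 54532 genes measured by RNA sequencing of whole mouse retina, and all 10 were found. The study used a mouse model of oxygen-induced retinopathy, in which newborn mice breathe extra oxygen and retinal vessels are lost. Of the 16 libraries, 4 came from BALBc mice in hyperoxia, 4 from BALBc mice in normoxia, 4 from C57 mice in hyperoxia and 4 from C57 mice in normoxia. Hyperoxia was 75% oxygen from day 7 after birth to day 12, following room air, and normoxia was room air throughout. All retinas were 12 days old, and the labels name no transgene or engineered allele in any group. The series compared a strain resistant to the retinopathy with a susceptible one, but the labels do not say which is which. They also do not say whether the libraries of a group came from separate mice or litters, or whether animals were pooled. The p-values below therefore measure the spread between these libraries, which may be partly technical.

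Ganglion cells are the output neurons of the retina. Their axons run across the inner retina, next to the astrocytes and vessels of the superficial plexus, and leave through the optic nerve. Pou4f1, Pou4f2 and Pou4f3 encode the POU-domain transcription factors Brn3a, Brn3b and Brn3c, which specify ganglion cells and their subtypes. Nefl, Nefm and Nefh encode the light, medium and heavy neurofilament subunits of large axons. Slc17a6 encodes the vesicular glutamate transporter VGLUT2, which ganglion cells use to load glutamate into synaptic vesicles. Rbpms encodes an RNA-binding protein used to label ganglion cells, Sncg encodes gamma-synuclein, and Thy1 encodes a surface glycoprotein of ganglion cells and other neurons.

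No ganglion cell gene was called for oxygen or for strain in the test across all genes, which does not show that none changed. For hyperoxia that test called 0.161% of all tested genes in BALBc and 0.334% in C57. For strain it called 9.08% in normoxia and 22.6% in hyperoxia. Over 34 other settings, 3 calls of these genes appeared, all for strain. The clearest pattern was by library. All 10 genes were at their lowest of 16 libraries in the fourth BALBc hyperoxia library, and all 10 peaked within their group in the second BALBc normoxia library. Within BALBc hyperoxia, libraries 2 and 3 stood above each gene's overall mean and libraries 1 and 4 stood below it, for 10 of 10 genes. In BALBc hyperoxia library 4, the mean log2 level was also the lowest of 16 for several marker lists of other cells. These were the amacrine, astrocyte, Müller glia, endothelial, pericyte and erythroid lists, but not the rod, cone or bipolar lists. Whether a shift in the make-up of that library had a part in the ganglion cell pattern was not tested. In bulk retina, fewer ganglion cells and less RNA per ganglion cell cannot be told apart.

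Levels are in FPKM, which scales fragments to transcript length and library size, so levels of different genes can be set beside each other. The smallest library held 16.7 M reads and the largest 29.7 M reads, as worked back from the FPKM values. The 10 rod genes summed to between 4957 and 15120 FPKM, and 7 of 7 cone genes and 10 of 10 bipolar genes were also measurable, as a retina label requires. Lens genes summed to between 2.9 and 3723 FPKM, pigment epithelium genes to between 64.4 and 363 FPKM, and 1 of 5 fibroblast genes passed the expression filter.

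All 10 genes exceeded 1 FPKM in each of the 16 libraries. Averaged over all libraries, the order of the levels was Sncg at 116 FPKM, Nefl at 111, Thy1 at 55.8, Nefm at 37.3, Nefh at 33.0, Slc17a6 at 15.7, Pou4f1 at 11.3, Rbpms at 7.01, Pou4f2 at 5.35 and Pou4f3 at 3.35 FPKM. Sncg and Nefl exchanged places between libraries, as did Nefm and Nefh. Rbpms was above Pou4f2 in all libraries but the fourth of BALBc normoxia. The other neighbours kept this order in all 16 libraries. The smallest number of reads behind any value was 93, for Pou4f3, and the largest was 12317, for Nefl.

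**Figure D1:**
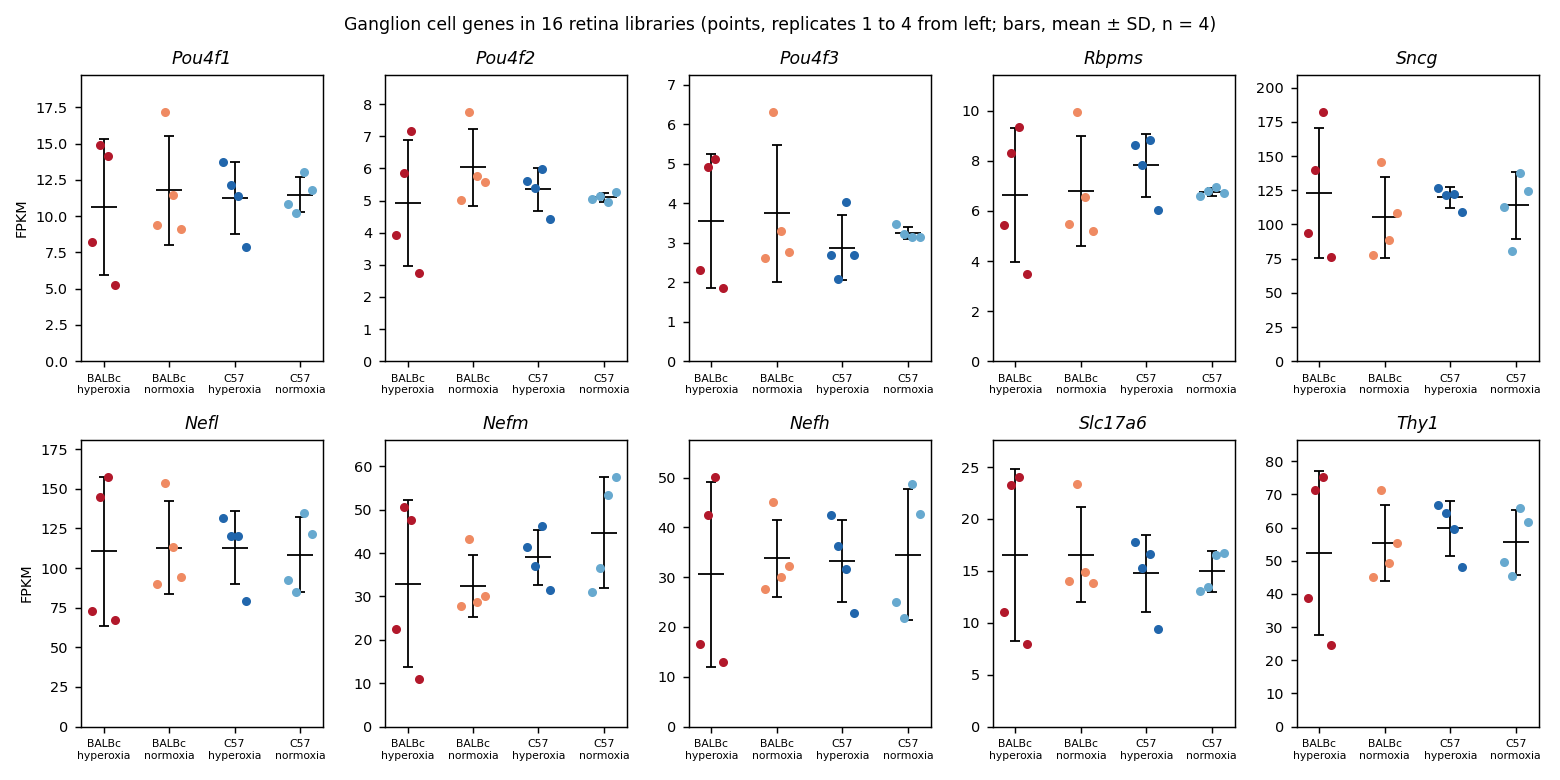
FPKM of the 10 ganglion cell genes (1 panel each, axes from 0) in the 4 groups. Points are libraries 1 to 4 from left to right, and bars are mean ± SD (n = 4). The widest spread is in BALBc hyperoxia, where libraries 2 and 3 lie high and libraries 1 and 4 low in every panel.

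The POU-domain factors came first. Pou4f1 (chromosome 14, 104461676 to 104467999, minus strand, GRCm38) had 8.22, 14.9, 14.1 and 5.24 FPKM in BALBc hyperoxia libraries 1 to 4, against 9.42, 17.2, 11.5 and 9.08 FPKM in BALBc normoxia. In C57 retinas it had 13.7, 12.1, 11.4 and 7.85 FPKM in hyperoxia, against 10.8, 10.2, 13.0 and 11.8 FPKM in normoxia. The groups overlapped in each strain and each oxygen condition. On the log2 scale, Pou4f1 differed by -0.21 between hyperoxia and normoxia in BALBc (95% interval -0.80 to 0.38) and by -0.05 in C57 (-0.63 to 0.54).

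Pou4f2 (chromosome 8, 78433010 to 78436645, minus strand) encodes the factor that acts earliest of the family in ganglion cell development. It had 3.92, 5.84, 7.17 and 2.75 FPKM in BALBc hyperoxia, against 5.01, 7.76, 5.77 and 5.58 FPKM in BALBc normoxia. C57 hyperoxia libraries had 5.61, 5.38, 5.98 and 4.41 FPKM, against 5.04, 5.13, 4.96 and 5.27 FPKM in C57 normoxia. The C57 normoxia libraries were closely spaced, at 5.10 ± 0.132 FPKM (SD, n = 4), whereas BALBc hyperoxia averaged 4.92 ± 1.97 FPKM (SD, n = 4). Pou4f2 came nearest to the threshold among the 10 genes for hyperoxia in BALBc, with a log2 difference of -0.33 (SE 0.21, interval -0.77 to 0.11) and an adjusted p of 0.503 by limma.

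The stretch before the transcription start was examined for 4 members (Pou4f1, Pou4f2, Sncg and Slc17a6) with windows from the RefSeq promoter table (GRCm38.p6). Windows on the chromosome of Pou4f3 were left out of the search, so Pou4f3 was not examined. Whether these stretches bear on the shared movement of the genes across libraries was not tested. Windows covered the 250 bases before each start and are written 5′ to 3′ on the gene's own strand, with capitals marking TAATTA, the core letters bound by many homeodomain proteins. The windows of Pou4f1 (chr14:104468000-104468249, minus strand), Pou4f2 (chr8:78436648-78436897, minus strand) and the inner start of Slc17a6 (chr7:51624387-51624636, plus strand, within an intron of the longer annotated transcript) are shown because they span the range of base composition and include the 1 window with that motif.
Pou4f1: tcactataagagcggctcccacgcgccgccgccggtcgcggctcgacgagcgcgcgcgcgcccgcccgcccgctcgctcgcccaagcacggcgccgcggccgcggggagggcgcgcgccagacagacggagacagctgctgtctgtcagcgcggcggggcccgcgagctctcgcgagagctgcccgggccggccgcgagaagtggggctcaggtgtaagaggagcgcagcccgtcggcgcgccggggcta
Pou4f2: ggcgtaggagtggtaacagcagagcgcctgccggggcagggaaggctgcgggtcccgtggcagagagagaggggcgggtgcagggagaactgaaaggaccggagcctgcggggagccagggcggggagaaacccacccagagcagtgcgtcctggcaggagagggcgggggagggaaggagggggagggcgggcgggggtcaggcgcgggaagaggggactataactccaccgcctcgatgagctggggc
Slc17a6: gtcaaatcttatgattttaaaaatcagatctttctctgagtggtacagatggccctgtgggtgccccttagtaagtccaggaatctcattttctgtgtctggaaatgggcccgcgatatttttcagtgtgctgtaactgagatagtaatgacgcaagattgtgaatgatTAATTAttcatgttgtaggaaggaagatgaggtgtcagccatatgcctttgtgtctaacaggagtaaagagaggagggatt

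The Pou4f1 window was 78% G and C with 47 CpG dinucleotides, the Pou4f2 window 70.8% with 17, and the inner Slc17a6 window 41.2% with 3. Over all 32851 windows in the table, the median was 52.4% G and C with 6 CpG dinucleotides. TAATTA lay 81 to 76 bases before the inner Slc17a6 start, and 4.84% of all windows hold it on either strand. The E-box letters CANNTG occurred at 2 places each in the Pou4f1 and the inner Slc17a6 window and were found in 66.2% of all windows. The search also covered TATAAA (the TATA box), which 12.4% of all windows hold. It covered CCAAT, which 33.8% hold, and a stretch of the RE1 element that 1.32% hold. None of the letters searched was found in the Pou4f2 window. These matches describe letters and do not show that a factor binds there.

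Pou4f3 (chromosome 18, 42394539 to 42397249, plus strand), active in a smaller subset of ganglion cells, was the least abundant. It had 2.32, 4.91, 5.11 and 1.85 FPKM in BALBc hyperoxia, against 2.62, 6.31, 3.30 and 2.76 FPKM in BALBc normoxia. C57 values were 2.70, 2.08, 4.02 and 2.69 FPKM in hyperoxia, against 3.48, 3.22, 3.15 and 3.15 FPKM in normoxia. The groups overlapped again, and in C57 hyperoxia 3 libraries lay below every normoxia library and the third lay above all of them. Relative to Pou4f1 in the same library, Pou4f3 stood at 0.331 ± 0.0354 in BALBc hyperoxia and 0.309 ± 0.0401 in BALBc normoxia, and at 0.266 ± 0.0953 in C57 hyperoxia and 0.286 ± 0.0381 in C57 normoxia (SD, n = 4 each).

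Rbpms (chromosome 8, 33782643 to 33929863, minus strand) had 5.44, 8.30, 9.36 and 3.50 FPKM in BALBc hyperoxia, against 5.49, 9.95, 6.57 and 5.18 FPKM in BALBc normoxia. Its C57 hyperoxia libraries had 8.62, 7.82, 8.82 and 6.05 FPKM, against 6.58, 6.78, 6.96 and 6.72 FPKM in C57 normoxia. In C57, 3 hyperoxia libraries lay above all normoxia libraries and the fourth lay below them. The log2 difference in C57 was 0.18 (interval -0.33 to 0.70) with an adjusted p of 0.797 by limma.

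Sncg (chromosome 14, 34370274 to 34374789, minus strand) was the most abundant of the genes on average. It had 93.9, 140, 182 and 76.3 FPKM in BALBc hyperoxia, against 78.0, 145, 88.8 and 108 FPKM in BALBc normoxia. C57 retinas had 127, 122, 122 and 109 FPKM in hyperoxia, against 113, 80.6, 138 and 124 FPKM in normoxia. The C57 hyperoxia libraries fell inside the range of the C57 normoxia libraries. In BALBc, Sncg had the only positive log2 difference of the 10 genes, 0.19 (interval -0.34 to 0.71), with an adjusted p of 0.785 by limma.

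Thy1 (chromosome 9, 44043384 to 44048579, plus strand) had 38.8, 71.2, 75.2 and 24.4 FPKM in BALBc hyperoxia, against 45.2, 71.3, 49.4 and 55.5 FPKM in BALBc normoxia. C57 hyperoxia gave 66.8, 64.5, 59.5 and 48.2 FPKM, against 49.5, 45.3, 65.9 and 61.8 FPKM in C57 normoxia. Groups overlapped throughout, and the fourth BALBc hyperoxia library lay well below the rest. Of the 10 genes, Thy1 followed the average of the other 9 most closely over the 16 libraries, with a Pearson r of 0.962.

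Of the neurofilament genes, Nefm and Nefh had the widest within-group spread of the 10 genes, and Nefl had the smallest ratio of highest to lowest library, 2.34. Nefl (chromosome 14, 68083863 to 68089095, plus strand) had 72.8, 145, 157 and 67.2 FPKM in BALBc hyperoxia, against 89.7, 154, 113 and 94.4 FPKM in BALBc normoxia. In C57 it had 132, 120, 120 and 79.1 FPKM in hyperoxia, against 92.6, 85.1, 135 and 121 FPKM in normoxia. The group means were close, at 111 ± 47.1 FPKM in BALBc hyperoxia, 113 ± 29.3 in BALBc normoxia, 113 ± 23.1 in C57 hyperoxia and 108 ± 23.6 in C57 normoxia (SD, n = 4 each).

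Nefm (chromosome 14, 68082590 to 68124846, minus strand) had 22.5, 50.7, 47.7 and 11.0 FPKM in BALBc hyperoxia, against 27.9, 43.2, 28.6 and 30.2 FPKM in BALBc normoxia. C57 hyperoxia libraries had 41.3, 36.9, 46.3 and 31.5 FPKM, against 31.1, 36.6, 53.4 and 57.5 FPKM in C57 normoxia. Nefm had the largest ratio between its highest and lowest library, 5.21, and the fourth BALBc hyperoxia library was the low end. Between strains, averaged over both oxygen conditions, its log2 difference was -0.45 (SE 0.26, interval -0.997 to 0.106) with an adjusted p of 0.213 by limma, the lowest for any of the 10 genes in any comparison. Nefl and Nefm lie on opposite strands and share 1108 exonic bases in the GENCODE annotation. Whether the counting used strand is not given in the sources used here, so reads from these bases may have been assigned to either gene or to neither.

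Nefh (chromosome 11, 4938754 to 4948064, minus strand) had 16.6, 42.5, 50.1 and 13.0 FPKM in BALBc hyperoxia, against 27.6, 45.1, 30.1 and 32.3 FPKM in BALBc normoxia. Its C57 values were 42.4, 36.3, 31.7 and 22.8 FPKM in hyperoxia, against 25.0, 21.7, 48.6 and 42.6 FPKM in normoxia. BALBc hyperoxia held both the highest and the lowest library of all 16. From the spread pooled over the 4 groups, the log2 interval for hyperoxia was -1.15 to 0.47 in BALBc and -0.81 to 0.80 in C57. In BALBc this was equal to a fold between 0.451 and 1.39.

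Within a library, the ratio of Nefm to Nefl averaged 0.282 ± 0.081 in BALBc hyperoxia, 0.291 ± 0.0305 in BALBc normoxia, 0.351 ± 0.0469 in C57 hyperoxia and 0.409 ± 0.0582 in C57 normoxia (SD, n = 4 each). In normoxia, BALBc libraries lay between 0.253 and 0.320 and C57 libraries between 0.336 and 0.474, without overlap. The exact two-sided permutation test gave p = 0.0286, the smallest that 4 against 4 libraries allow, and 0.457 after adjustment over 32 tests of 8 such ratios. The ratio of Nefh to Nefm, which shares Nefm, was 1.04 ± 0.034 in BALBc normoxia and 0.762 ± 0.133 in C57 normoxia (SD, n = 4 each), with the same exact permutation p. These ratios were chosen after the levels had been seen. No other of the 32 tests had an unadjusted p under 0.05.

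Slc17a6 (chromosome 7, 51622006 to 51671119, plus strand) had 11.0, 23.3, 24.0 and 7.97 FPKM in BALBc hyperoxia, against 14.1, 23.4, 14.8 and 13.8 FPKM in BALBc normoxia. In C57 it had 17.8, 15.3, 16.6 and 9.40 FPKM in hyperoxia, against 13.0, 13.5, 16.5 and 16.8 FPKM in normoxia. The fourth library was the lowest in both hyperoxia groups, and no pair of groups separated. Its ratio to Pou4f1 in the same library stayed between 1.2 and 1.7 over all 16 libraries, while its own level ranged 3.01-fold.

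For the effect of oxygen, limma on log2(FPKM + 0.5) called 0 of 10 genes at an adjusted p under 0.05 in BALBc, where 0.161% of the 14953 tested genes were called, and 0 of 10 in C57, where 0.334% were called. It called 0 of 10 for the difference between the strains' responses, beside 0% of all genes, and 0 of 10 for hyperoxia averaged over both strains, beside 1.79%. At an unadjusted p under 0.05 the count was also 0 of 10 in all 4 comparisons, beside 14.2%, 13.3%, 9.56% and 17.3% of all tested genes in the same order. With so few of all genes called, the adjusted counts say little about these genes in particular. limma-voom on the recovered reads also called none of the 10.

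In BALBc the median log2 difference of the 10 genes for hyperoxia against normoxia was -0.15, beside 0.00 for all genes (adjusted p between 0.503 and 0.927). In C57 it was 0.02, beside 0.01 (adjusted p between 0.797 and 0.998). The two-sided 95% intervals show which changes remain possible: in BALBc they allow a fold as low as 0.451 for Nefh and as high as 1.64 for Sncg. For Pou4f2, the most precisely measured, they run from 0.588 to 1.08 in BALBc and from 0.767 to 1.41 in C57. The median standard error of the 10 genes was 0.278 on the log2 scale, beside 0.152 for all tested genes, so changes of this size would be harder to detect here than for a typical gene.

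For strain, limma called 0 of 10 genes in normoxia, beside 9.08% of all tested genes, and 0 of 10 in hyperoxia, beside 22.6%. Averaged over both oxygen conditions it called 0 of 10, beside 29%. The count at an unadjusted p under 0.05 was 0 of 10 in all 3 comparisons, beside 22.9%, 36% and 40.4% of all tested genes, and limma-voom also called none. In each oxygen condition the median standard error of the 10 genes was 0.278, beside 0.152 for all tested genes. The 10 genes also vary together, so these counts do not show that strain had no effect on them. Each library was also scaled to the 10 genes themselves, which removes their common level. This fit cannot call a difference that all 10 share and bears only on differences among them. It called 0 of 10 for strain, beside 1.64% of all genes in normoxia, 2.43% in hyperoxia and 4.2% averaged, shares at which 0 of 10 says little. In that fit, Nefm for strain averaged had a log2 difference of -0.36 (interval -0.705 to -0.012). Its unadjusted p was 0.043 and its adjusted p 0.34, both by limma. Without that scaling, the median log2 difference of the 10 genes, BALBc against C57, was 0.01 in normoxia, -0.17 in hyperoxia and -0.08 averaged, beside 0.01 for all genes each time. No member had groups without overlap in any of the 4 comparisons of 2 groups. Of all genes, 8.82% did for hyperoxia in BALBc, 7.63% for hyperoxia in C57, 18% for strain in normoxia and 21.4% for strain in hyperoxia. At these shares, and for 10 genes that vary together over libraries, a count of 0 says little about them in particular.

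**Figure D2:**
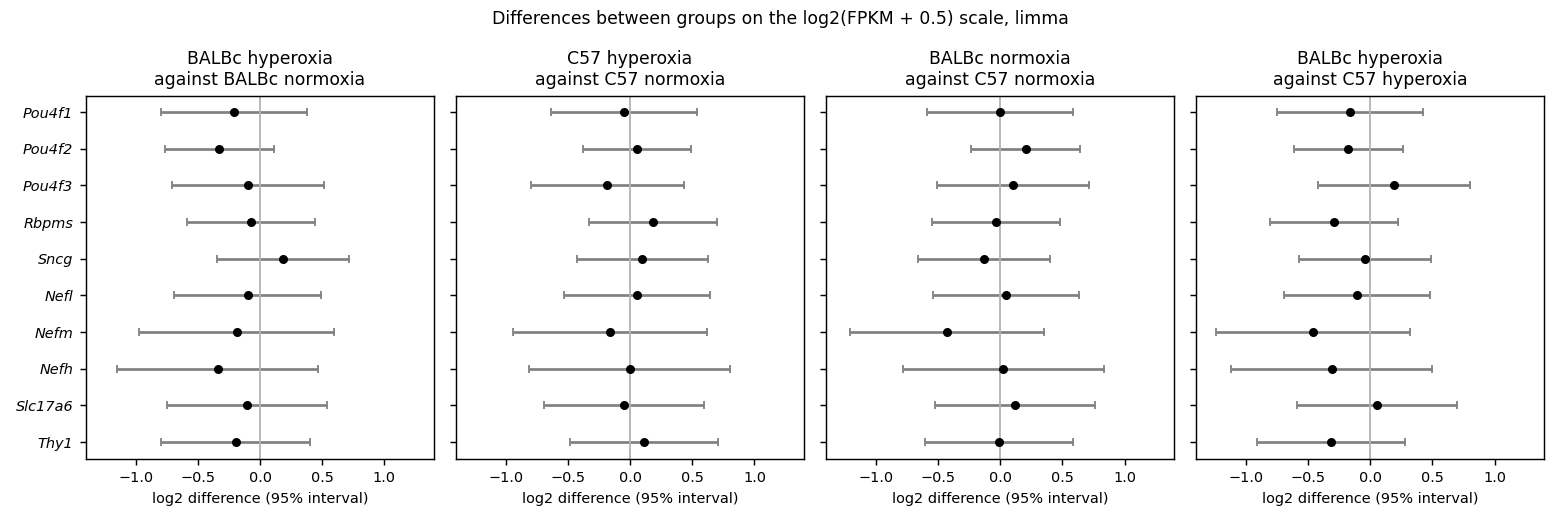
Log2 difference of each ganglion cell gene in the 4 comparisons of 2 groups, from limma on log2(FPKM + 0.5). Points are estimates and bars are 95% intervals, and the vertical line marks 0. Every interval includes 0, and the intervals of Nefm and Nefh are the widest.

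Group membership accounted for little of the variation. The share of a gene's variance lying between the 4 groups was between 1.31% for Nefl and 18.5% for Nefm, with a median of 6.67%, beside 37.3% for all tested genes. The within-group SD on the log2 scale was between 0.315 for Pou4f2 and 0.602 for Nefh, with a median of 0.436 beside 0.214. The 10 genes thus varied more between libraries of 1 group than a typical gene, and less between groups relative to that spread.

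That variation was shared. Relative to each gene's own mean over all libraries, the median log2 deviation of the 10 genes was -0.87 in the fourth BALBc hyperoxia library, where it ranged from -1.62 for Nefm to -0.56 for Sncg. It was -0.41 in the first, 0.43 in the second and 0.51 in the third. In the second BALBc normoxia library it was 0.52, ranging from 0.30 for Nefm to 0.88 for Pou4f3. The remaining libraries had medians between -0.25 and 0.27. In C57 normoxia the genes did not all move one way: library 4 was high for Nefm at 0.71 and near its mean for Pou4f2 at 0.01.

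**Figure D3:**
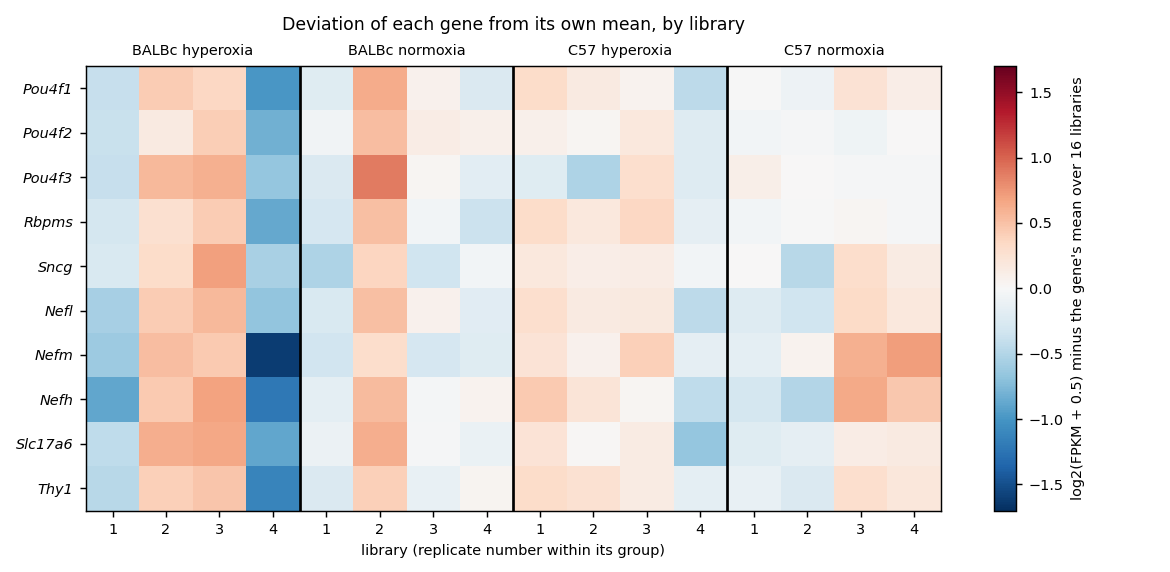
Deviation of each ganglion cell gene (rows) from its own mean over 16 libraries, in log2(FPKM + 0.5), by library (columns, replicate numbers within each group). Red is above and blue below the mean. All 10 genes lie on the same side of their means in BALBc hyperoxia 1 to 4, BALBc normoxia 1 and 2, and C57 hyperoxia 3 and 4, and the darkest cell is Nefm in BALBc hyperoxia 4, at -1.62.

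The 45 pairs of genes had a Pearson r between 0.618 (Pou4f3 and Nefh) and 0.952 (Nefh and Thy1) over 16 libraries, with a median of 0.842. Spearman's rho lay between 0.515 and 0.968. All 45 had an adjusted permutation p under 0.05, the highest being 0.0105 for Pearson's r and 0.0437 for Spearman's rho (Pou4f2 and Nefm). Without the 2 libraries farthest from the median of the first gene, r lay between 0.444 and 0.945. With group means removed, it lay between 0.667 and 0.971, with a median of 0.891. FPKM values of 1 library share a denominator, and how much of the correlation comes from that was not tested. Scaling to a fixed total per library gave a median r of 0.811.

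Within single groups of 4 libraries, the median r was 0.976 in BALBc hyperoxia and 0.950 in BALBc normoxia, against 0.916 in C57 hyperoxia and 0.610 in C57 normoxia. In C57 normoxia, pairs ranged from -0.873 to 0.998. There the SD was only 2.58% of the mean for Pou4f2, 4.76% for Pou4f3 and 2.35% for Rbpms, so little variation was left to correlate. Each r within a group rests on 4 libraries, so these values are imprecise and do not rank the groups. The median over 16 libraries was 0.794 without the fourth BALBc hyperoxia library and 0.698 without all 4 BALBc hyperoxia libraries. Pou4f3 was the least tied to the others, with r = 0.751 to their average, and it also had the fewest reads.

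**Figure D4:**
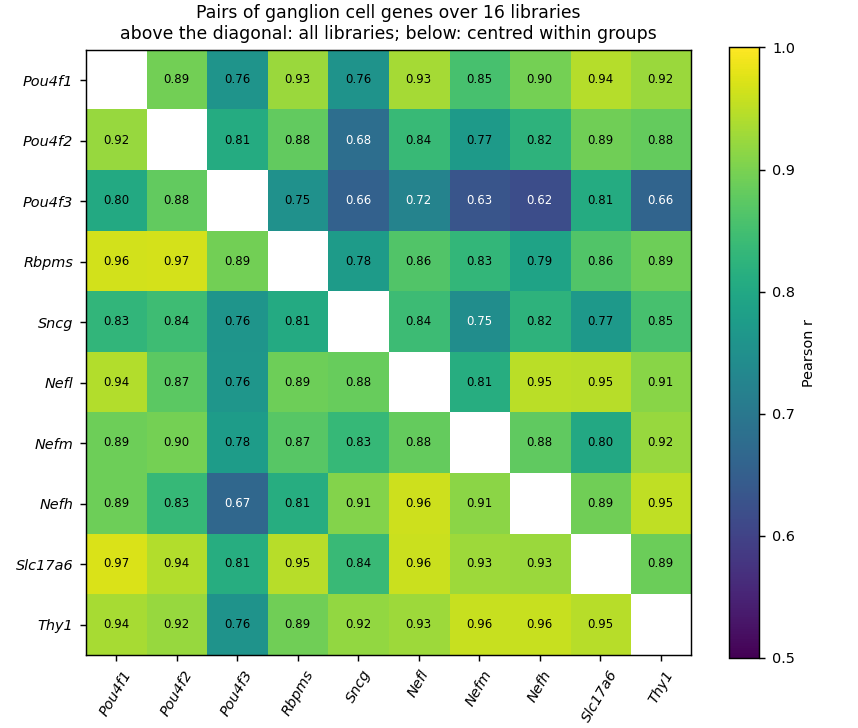
Pearson r between pairs of ganglion cell genes over 16 libraries, on log2(FPKM + 0.5). Cells above the diagonal use all values and cells below use values with group means removed. The row and column of Pou4f3 hold the lowest values, down to 0.62 above the diagonal.

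Markers of other retinal cells moved with some of these libraries. The 10 amacrine genes summed to 65.0 FPKM in the fourth BALBc hyperoxia library, against 102 to 110 FPKM in the other 3 of that group, 105 to 113 in BALBc normoxia, 132 to 152 in C57 hyperoxia and 117 to 141 in C57 normoxia. Astrocyte genes, of which 5 of 6 were tested and none was at 0 in any library, summed to 68.6 and 75.1 FPKM in BALBc hyperoxia libraries 4 and 1 and to 95.8 and 106 in libraries 2 and 3. They summed to 96.0 to 107 FPKM in BALBc normoxia, 92.1 to 111 in C57 hyperoxia and 73.7 to 106 in C57 normoxia. The astrocyte genes had a median r of 0.70 with the average of the ganglion cell genes, the highest of the other cell type lists. By gene, r was 0.77 for Aldoc, 0.761 for S100b, 0.697 for Pdgfra and 0.637 for Gfap, but -0.109 for Slc1a2. Aldoc and Slc1a2 had the highest means, 54.9 and 27.3 FPKM, and so weigh most in the sums. Pax2, with a median of 0.321 FPKM, was not tested.

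The rod genes summed to 6412, 14320, 14370 and 10020 FPKM in BALBc hyperoxia libraries 1 to 4. In C57 normoxia they summed to 5706, 4957, 15120 and 12190 FPKM. Rod genes were thus low in the first but not the lowest in the fourth BALBc hyperoxia library, and their median r with the ganglion cell average was 0.33. Bipolar genes ran the other way, with a median r of -0.42, and summed to 463, 222, 274 and 361 FPKM in BALBc hyperoxia. Pigment epithelium genes summed to 71.6, 320, 363 and 141 FPKM in the same libraries, high in 2 and 3 like the ganglion cell genes, with a median r of 0.37. Müller glia, endothelial, pericyte and erythroid lists, by mean log2 level, were also lowest of the 16 libraries in the fourth BALBc hyperoxia library, as were the amacrine and astrocyte lists. The part of these shifts in the spread of the ganglion cell genes was not tested. With the rod gene mean as a covariate, limma again called 0 of 10 ganglion cell genes in each of the 7 comparisons.

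**Figure D5:**
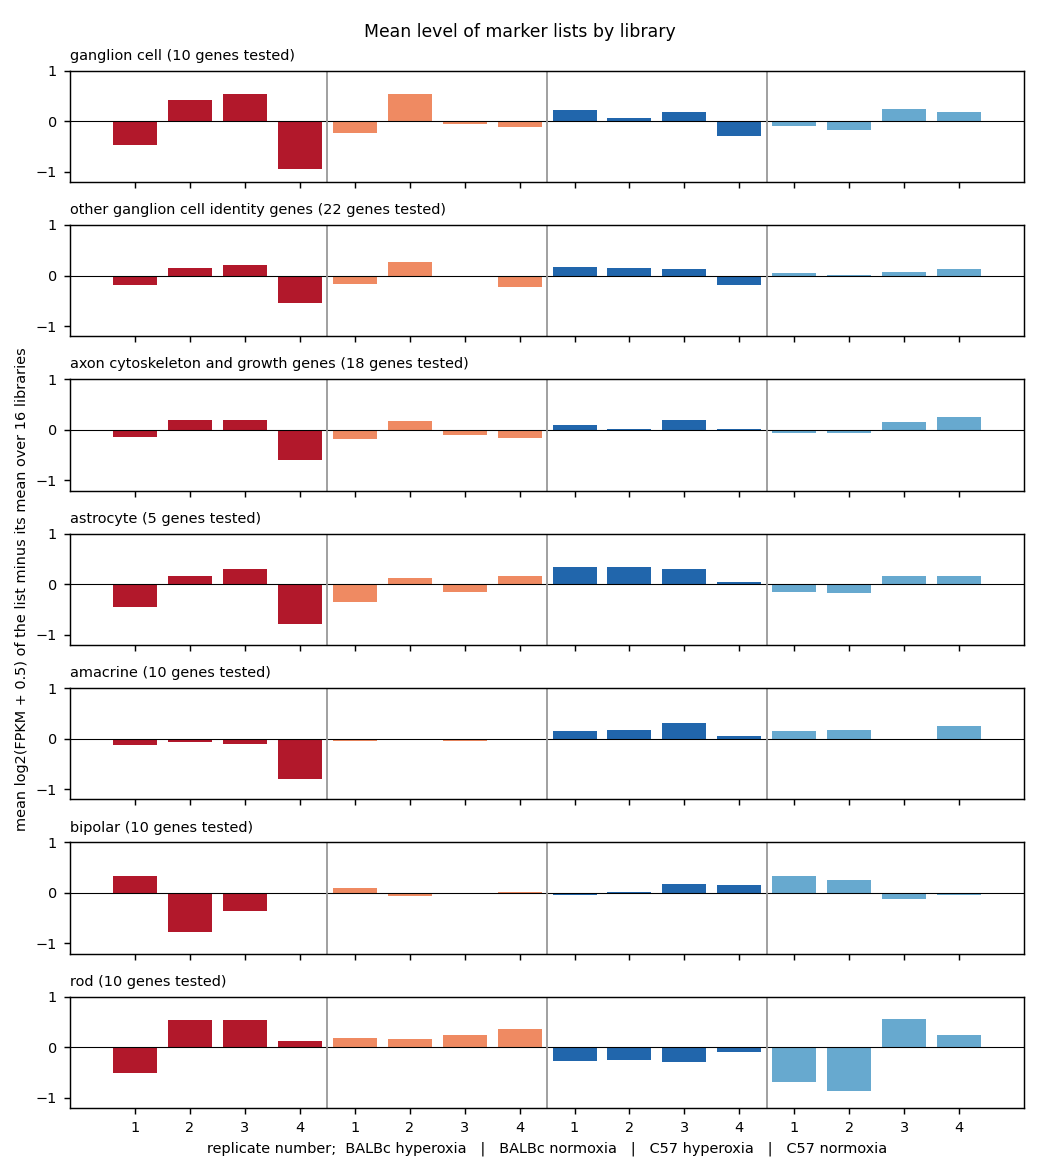
Mean log2(FPKM + 0.5) of 7 gene lists in each library, minus the list's mean over 16 libraries. Bars are single libraries, grouped as labelled under the axis. Ganglion cell and astrocyte lists are both lowest in BALBc hyperoxia 4, the rod list is lowest in C57 normoxia 2, and the bipolar list is lowest in BALBc hyperoxia 2.

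The genes whose pattern was most like the average of the 10 over 16 libraries were Fgf12 (r = 0.973), Rapgef4 (0.971), Trarg1 (0.963), Sult4a1 (0.961), Tmem163 (0.956), Ppp2r2c (0.955), Rgs4 (0.951) and Cplx1 (0.950). Fgf12 encodes an intracellular binding partner of sodium channels, and Cplx1 encodes complexin 1, which regulates vesicle fusion. Fgf12 had 12.2 ± 4.98 FPKM in BALBc hyperoxia and 13.2 ± 3.48 in BALBc normoxia, and 12.2 ± 2.06 in C57 hyperoxia and 12.2 ± 1.53 in C57 normoxia (SD, n = 4 each). Of 14943 other tested genes, 44 had r over 0.9, and the median was 0.00. These are descriptions of the same 16 libraries, which share the shifts given above.

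By single member, the closest other gene was Fgf12 for Pou4f1 (r = 0.968) and Nefl (0.963), Zmat4 for Pou4f2 (0.948), Chst11 for Pou4f3 (0.911), Coro2a for Rbpms (0.955) and Calm3 for Sncg (0.909). It was Epb41l1 for Nefm (0.981), Lynx1 for Nefh (0.957), Trarg1 for Slc17a6 (0.968) and Cplx1 for Thy1 (0.970). Epb41l1 encodes a membrane skeleton protein of neurons, and Lynx1 encodes a modulator of nicotinic acetylcholine receptors.

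A list of 25 other ganglion cell identity genes had 22 tested members. None was called for hyperoxia against normoxia in BALBc, in C57 or averaged, beside 0.161%, 0.334% and 1.79% of all tested genes. With so few of all genes called, these counts say little about the list. Its medians were -0.08, 0.03 and -0.04 on the log2 scale, beside 0.00, 0.01 and 0.00 for all genes. Between strains, averaged over both oxygen conditions, 2 were higher and 5 lower in BALBc, a share near the 29% of all tested genes called there. Jam2, a junctional adhesion molecule that marks a direction-selective ganglion cell type, had 28.4 ± 2.38 FPKM in BALBc hyperoxia and 30.5 ± 0.829 in BALBc normoxia, against 49.9 ± 7.40 in C57 hyperoxia and 49.3 ± 4.81 in C57 normoxia (SD, n = 4 each). Its log2 difference was -0.74 (SE 0.07, adjusted p = 2.63e-06 by limma).

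Kcng4, a modifier subunit of potassium channels found in alpha ganglion cells, was also lower in BALBc, with a log2 difference of -0.63 (adjusted p = 0.000779 by limma). Cartpt, a neuropeptide precursor of direction-selective ganglion cells, was higher in BALBc, with 45.8 ± 8.81 FPKM in BALBc hyperoxia and 49.1 ± 8.64 in BALBc normoxia, against 34.5 ± 2.57 in C57 hyperoxia and 29.4 ± 3.22 in C57 normoxia (SD, n = 4 each). Its log2 difference was 0.55 (adjusted p = 0.000869 by limma), and Mmp17, a membrane-bound metalloproteinase, had 0.47 (adjusted p = 0.00275 by limma). Over the tested genes of the list of other ganglion cell identity genes, the median r with the ganglion cell average was 0.67. Trarg1 (0.963), named above, belongs to that list. Over all 16 libraries, Jam2, Kcng4 and Cartpt had r = 0.065, -0.13 and 0.336 with the ganglion cell average. These values include the strain differences of the 3 genes, and r within groups was not computed for them. Within its groups, Cartpt was lowest in BALBc hyperoxia 4, at 34.8 FPKM, and highest in BALBc normoxia 2, at 60 FPKM, as the ganglion cell genes were. In C57 normoxia it peaked in library 1, at 33.3 FPKM, where most of them did not. Among genes singled out after their values were seen, Irx2 (0.938) and Nrn1 (0.921) followed the ganglion cell average closely. Isl1, which bipolar cells also express, ran against it (-0.469).

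All 18 genes of a list for the axon cytoskeleton and axon growth were tested. None was called for oxygen in BALBc, in C57 or averaged, beside 0.161%, 0.334% and 1.79% of all tested genes. The median log2 differences were -0.05 in BALBc and 0.04 in C57. For strain averaged over oxygen, 2 were higher and 3 lower in BALBc, again near the 29% of all tested genes. Mapt, which encodes the microtubule-binding protein tau, had 18.8 ± 4.54 FPKM in BALBc hyperoxia and 19.8 ± 2.01 in BALBc normoxia, against 29.7 ± 2.39 in C57 hyperoxia and 29.1 ± 3.44 in C57 normoxia (SD, n = 4 each). Its log2 difference was -0.61 (adjusted p = 0.000679 by limma). Gap43, a growth cone protein, was lower with a log2 difference of -0.53 (adjusted p = 0.00925 by limma), as was Tubb3, neuronal beta-tubulin, with -0.49 (adjusted p = 0.016 by limma). Dpysl3, a collapsin response mediator, was higher with 0.42 (adjusted p = 0.00371 by limma).

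Of 16 genes known to respond to ganglion cell injury, 12 were tested. For hyperoxia, 0 were called in BALBc, beside 0.161% of all tested genes, and in C57, beside 0.334%, 1 was higher. That gene was Sesn2, a stress-induced sestrin, with 9.07 ± 1.57 FPKM in C57 hyperoxia against 5.62 ± 0.228 in C57 normoxia (SD, n = 4 each), a log2 difference of 0.63 and an adjusted p of 0.0454 by limma. Averaged over the strains, where 1.79% of all tested genes were called, Bbc3 was higher in hyperoxia by 0.52 (adjusted p = 0.0386 by limma). Bbc3, which encodes the pro-apoptotic protein PUMA, had 5.0 ± 0.776 FPKM in BALBc hyperoxia against 3.46 ± 0.955 in BALBc normoxia, and 9.63 ± 0.853 in C57 hyperoxia against 6.49 ± 1.44 in C57 normoxia (SD, n = 4 each). Both calls depended on single libraries and on settings. Sesn2 was called in 12 of 33 other settings, with log2 differences between 0.51 and 0.72 and adjusted p up to 0.549. Bbc3 was called in 16 of 32, with log2 differences between 0.45 and 0.71 and adjusted p up to 0.174. Leaving out any 1 library of either normoxia group, BALBc hyperoxia 2 or 3, or C57 hyperoxia 1 or 2 ended the Sesn2 call. For Bbc3 these were BALBc hyperoxia 2, 3 or 4, BALBc normoxia 3 or 4, C57 hyperoxia 1, 3 or 4, and C57 normoxia 2 or 4. For strain averaged over oxygen, 1 of the 12 was higher and 3 were lower in BALBc, close to the 29% of all tested genes. Bbc3 was among the lower ones, with a log2 difference of -0.86 (adjusted p = 8.28e-05 by limma). For oxygen, the median of the 12 genes was 0.00 in BALBc and 0.03 in C57, and their median r with the ganglion cell average was 0.02.

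Of 12 genes for neurotrophins and survival receptors, 10 were tested. For oxygen, none was called in BALBc, in C57 or averaged, beside 0.161%, 0.334% and 1.79% of all tested genes. For strain averaged over oxygen, 1 was higher and 2 were lower in BALBc, a share close to the 29% of all tested genes. Ngfr, the p75 neurotrophin receptor, had 3.91 ± 1.03 FPKM in BALBc hyperoxia and 4.11 ± 0.824 in BALBc normoxia, against 7.84 ± 0.827 in C57 hyperoxia and 9.28 ± 1.38 in C57 normoxia (SD, n = 4 each), a log2 difference of -1.02 (adjusted p = 1.89e-05 by limma). Gfra1, a GDNF co-receptor that shares 416 exonic bases with a gene on the other strand, was lower with a log2 difference of -0.51 (adjusted p = 0.00315), and Lifr, the leukemia inhibitory factor receptor, was higher with 0.55 (adjusted p = 0.000198), both by limma.

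The 7 other transmitter transporters give a contrast to Slc17a6, and all were tested. None was called for oxygen in BALBc, in C57 or averaged, beside 0.161%, 0.334% and 1.79% of all tested genes. For strain averaged over oxygen, 3 of the 7 were lower in BALBc, beside 29% of all tested genes called in either direction. Slc17a8, the vesicular glutamate transporter VGLUT3 of a class of amacrine cells, had 0.499 ± 0.0758 FPKM in BALBc hyperoxia and 0.889 ± 0.227 in BALBc normoxia, against 1.90 ± 0.365 in C57 hyperoxia and 1.89 ± 0.127 in C57 normoxia (SD, n = 4 each). Its log2 difference was -1.02 (adjusted p = 5.27e-06 by limma), which the added 0.5 makes smaller than the ratio of the means. Slc6a9 and Slc32a1, the glycine and the inhibitory vesicular transporter of amacrine cells, were lower with log2 differences of -0.49 and -0.44 (adjusted p = 6.77e-05 and 0.00368 by limma), and both share exonic bases with genes on the opposite strand. Slc17a6 itself differed by 0.09 (interval -0.37 to 0.54) in the same comparison, with an adjusted p of 0.802 by limma.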

How the data were processed

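Retinal total RNA was isolated with TRIzol and sequenced from NEBNext Ultra II libraries, per the labels' protocols. The submitters' processing notes name HISAT2 2.0.5, featureCounts 1.5.0-p3 and the build GRCm38 (mm10). Whether counting used strand is not given in the sources used here. The authors deposited FPKM values for 54532 genes in 16 libraries, 4 in each of 4 groups. Tests used log2(FPKM + 0.5) of the 14953 genes that reached 1 FPKM in 4 or more libraries. One linear model with 4 group means was fitted with limma 3.58.1 in R 4.3.3 (empirical Bayes with a mean-variance trend), and 7 two-sided comparisons were Benjamini-Hochberg adjusted across these genes, with a threshold of 0.05. The added 0.5 understates changes of low genes. Whole reads were recovered from the FPKM steps and GENCODE M21 exon lengths, and between 97.1% and 97.5% of values up to 1000 reads were whole within 0.01. They served limma-voom as an alternative. Pair correlations used permutation tests. Scripts were tested on simulated data.

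The 10 genes and the gene lists were chosen with earlier results of these data known. From each list, up to 4 genes past the threshold per comparison, otherwise the 2 most abundant, could be named. The 8 genes closest to the average of the scaled members, and the closest gene to each member, were named by Pearson's r.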

Additional observations from a re-analysis of the deposited data

Results flagged for a closer look

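Of 124 groups of 4 libraries examined for a library far from the other 3, 8 held one, and chance alone gives about 1 in 20. Among the ganglion cell genes, the second BALBc normoxia library stood apart for Nefm at 43.2 FPKM, against 27.9 to 30.2 in the other 3, and for Slc17a6 at 23.4 FPKM, against 13.8 to 14.8. The same library stood apart for Mapt at 22.8 FPKM, against 18.7 to 18.9, and for Lifr at 14.6 FPKM, below 16.8 to 17.0. The first BALBc normoxia library had Bcl2l11 at 2.29 FPKM, against 1.89 to 1.95. Slc32a1 was low in the fourth BALBc hyperoxia library, at 13.1 FPKM against 21.4 to 21.8. In C57, Gap43 reached 66.0 FPKM in the first normoxia library, against 51.9 to 52.5, and Gfra1 was 5.37 FPKM in the fourth hyperoxia library, against 6.58 to 6.67.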

How the results depend on the processing

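The 7 counts of called ganglion cell genes, each 0 of 10, were recomputed under 34 other settings, 32 of them planned and 2 added after seeing the data. The count changed in 3 cases. With array quality weights it was 1 for BALBc against C57 in normoxia (Nefm, log2 difference -0.74, adjusted p = 0.0459 by limma) and 1 in hyperoxia (Pou4f3, 0.69, adjusted p = 0.034). Without BALBc hyperoxia replicates 1 and 4 it was 1 in hyperoxia (Slc17a6, 0.70, adjusted p = 0.0458 by limma). The cause was not tested. Leaving out each single library in turn gave 0 in each comparison. Over 2343 member values these were the 3 calls, and 284 uncalled values changed sign. The median pair r, 0.842 with all libraries, was 0.744 without BALBc hyperoxia replicates 1 and 4 and 0.698 without all 4 libraries of that group, and lay between 0.794 and 0.865 with 1 library left out. Scaling to a fixed total shifted the median log2 difference of all genes by -0.16 for hyperoxia in BALBc. A filter of 5 FPKM removed Pou4f3. The fit on the 8 libraries of a comparison applies to 4 of the 7. With the replicate number as a block, 0 members were called in each comparison. What the replicate numbers stand for is not given in the labels. Of 24 same-numbered pairs of libraries, 6 had deviations correlated above 0.1, with r between -0.501 and 0.401 over all 24. A differently numbered pair, BALBc hyperoxia 1 and C57 normoxia 2, reached 0.568. Whether the numbers mark a batch cannot be told from this count. Depth left at least 93 reads behind each value, so the spread between libraries, more than counting, limits the comparisons.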
